A study of Homo sapiens with 12 samples.

Results

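Cathepsin L, its relatives and the cystatins that inhibit them form a set of 10 genes, chosen by symbol among the 60669 Ensembl gene IDs of the count table. The 6 cystatins are CST6, CST3, CSTB, CSTA, CST1 and CST4, and the 4 proteases are CTSL, CTSV, CTSB and CTSD. RNA-seq was performed on 6 established human cell lines, described by the study as ovarian cancer lines. Each was grown with vehicle or with 8 µM quinacrine (QC), an acridine antimalarial drug, for 6 h. HeyA8, SK-OV-3 and OV2008 carry the label chemotherapy sensitive. Their resistant partners are HeyA8-MDR, described in the study's methods as carboplatin-resistant, SK-OV-3-TR, described as taxol-resistant, and C13, a cisplatin-resistant line derived from OV2008. The sample labels spell SK-OV-3 as SKOV3 and C13 as OV2008_C13, and call the vehicle libraries control. There was 1 library for each line and treatment, 12 in all, so a group's replicates were its 3 cell lines, and repeat libraries of a line were not analysed here.

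Cysteine cathepsins are proteases of the lysosome that degrade proteins delivered by endocytosis and autophagy, and tumour cells can also release them. Cystatins bind in the active site of these enzymes: the stefins CSTA and CSTB act mainly inside the cell, while CST3, CST6, CST1 and CST4 carry a signal peptide and are secreted. CST6 (cystatin E/M, also called CSTM) inhibits cathepsin L, cathepsin V and legumain, whereas cathepsin D is an aspartic protease that cystatins do not block. Quinacrine is a weak base that accumulates in acidic compartments such as lysosomes.

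The 4 members with a promoter entry in the RefSeq table were CST3, CTSL, CTSV and CTSD, and the table had none for CST6, CSTB, CSTA, CST1, CST4 and CTSB. Their 120 bases before the start given there are shown because they differ in the E-box CACGTG. This is the core of the motif bound by TFEB, a regulator of lysosomal genes. CTSL and CTSV also share a stretch. For CTSV the start used lies inside the gene span given below (chr9:97029677-97039643), downstream of its 5′ end. Capitals mark CACGTG, the GC box GGGCGG and the CCAAT box on either strand, each printed 5′ to 3′ on the strand of the gene (GRCh38.p14: CTSL chr9:87725999-87726118, plus strand, CTSV chr9:97039143-97039262, CTSD chr11:1763928-1764047 and CST3 chr20:23637956-23638075, all 3 on the minus strand).
CTSL: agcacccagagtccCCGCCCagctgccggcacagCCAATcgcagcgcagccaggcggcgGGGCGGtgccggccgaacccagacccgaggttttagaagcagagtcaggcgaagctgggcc
CTSV: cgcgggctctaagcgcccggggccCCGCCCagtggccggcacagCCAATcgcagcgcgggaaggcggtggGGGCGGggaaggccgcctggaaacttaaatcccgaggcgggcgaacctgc
CTSD: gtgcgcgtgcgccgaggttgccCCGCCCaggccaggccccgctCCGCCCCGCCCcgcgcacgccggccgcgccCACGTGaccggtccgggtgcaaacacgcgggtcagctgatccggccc
CST3: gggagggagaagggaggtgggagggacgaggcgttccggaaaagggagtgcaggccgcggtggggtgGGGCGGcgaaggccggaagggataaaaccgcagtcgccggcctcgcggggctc
Of the 4, CTSD held CACGTG, at 47 bases before the start. Over the whole 300-base windows (250 bases before the start and 50 after), 7.26% of all 35116 promoters held CACGTG. The GC box was present in all 4, compared with 45.0% of all promoters, and the CCAAT box in CTSL and CTSV, compared with 34.6%. The 10-base CLEAR extension of the E-box (0.353% of all promoters) and TATAAA (11.5%) were in none of the 4. CTSL and CTSV, paralogs on chromosome 9, shared the 23-base stretch gccggcacagCCAATcgcagcgc, which starts 96 bases before the CTSL start and 86 bases before the CTSV start and was in 2 promoters of the whole table, these 2. These matches describe letters in the windows and are not evidence of binding.

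Counts on genes totalled 17782556 to 30585059 per library, with a median of 22289428. Levels are given as normalized read counts (CPM), scaled to library size with edgeR's TMM factors. Low counts were mostly even: of values from 1 to 20, 64.3% to 68.6% were even per library, compared with 49.8% to 51.1% of values over 100, so 2 counts may be a single fragment and low counts carry less information than their size. The HeyA8 QC library stood apart. Over 285 genes at least 8-fold higher in HeyA8-MDR than in HeyA8 vehicle, its level lay a median 39.6% of the way, in CPM, towards HeyA8-MDR, and over 218 genes at least 8-fold lower it lay 52.7% of the way. Among the other QC libraries these medians ran from 0 to 31.2%. On the log2 scale the medians were 67.7% and 24.1% for HeyA8 QC, and 0 to 25.8% for the other QC libraries. The same vehicle library served to pick the genes and to measure the shift, so its noise adds to these shares. The fitted effects of the members over all lines are therefore also given without HeyA8. The epithelial markers EPCAM and CDH1 were at 0 to 2.93 and 0 to 0.222 CPM in the HeyA8 family but at 182.7 to 245.8 and 308.1 to 522.5 CPM in OV2008 and C13, whereas the Müllerian markers PAX8 and SOX17 were at 7.56 to 24.8 and 0 to 0.0754 CPM in OV2008 and C13 (PAX8 was at 234.1 to 479.6 CPM in the other lines). Other markers of these lists differed from this pattern, and the tissue of origin of the lines was not tested. KRT8 and KRT18 were at 812.5 to 1056 and 478.7 to 620.9 CPM in the HeyA8 family. In the SK-OV-3 family they were at 210.8 to 351.9 and 161.3 to 210.7 CPM. KRT19 had at most 8 counts in the HeyA8 family. Of the other ovarian markers, MECOM was at 26.4 to 1087 CPM over all libraries, WT1 at 0.999 to 4.79 and MUC16 at 0 to 10.9. The 3 leukocyte markers PTPRC, CD68 and LYZ summed to at most 0.727 CPM. The fibroblast markers COL1A1, COL1A2 and DCN were at 0.727 to 39.4, 0 to 6.86 and 0 to 0.681 CPM. The endothelial marker VWF was at 0 to 5.29 CPM. Which cells held this RNA was not tested.

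Without drug, levels per kilobase of transcript differed over a wide range between the members. The stefin CSTB had the highest median over the 6 vehicle libraries, 389 CPM per kb (192.8 to 633), followed by CST3 with 156 (62.8 to 224), CTSB with 98.2 (29.3 to 188), CTSD with 77.6 (67.8 to 389) and CTSL with 56.6 (32.1 to 102.5). CTSV (0.585 to 6.25 CPM per kb), CSTA (0.140 to 62.1) and CST6 (0 to 3.49) were low in most lines. The ranges of neighbours in this order overlapped. CST4 (chr20:23685640-23689038) had 0 counts in all 12 libraries, and CST1 (chr20:23747562-23750935) had 2 counts in the SK-OV-3 QC library and 0 in the other 11. A count of 0 allows up to 0.0886 to 0.178 CPM, depending on the library, for counting error only. CST1 and CST4 lie among related cystatin genes, of which CST2 reached at most 4 counts and CST5 at most 6. Reads that match several genes equally may not have been counted, so the levels of CST1 and CST4 are uncertain. How far these genes share reads was not tested.

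**Figure D1:**
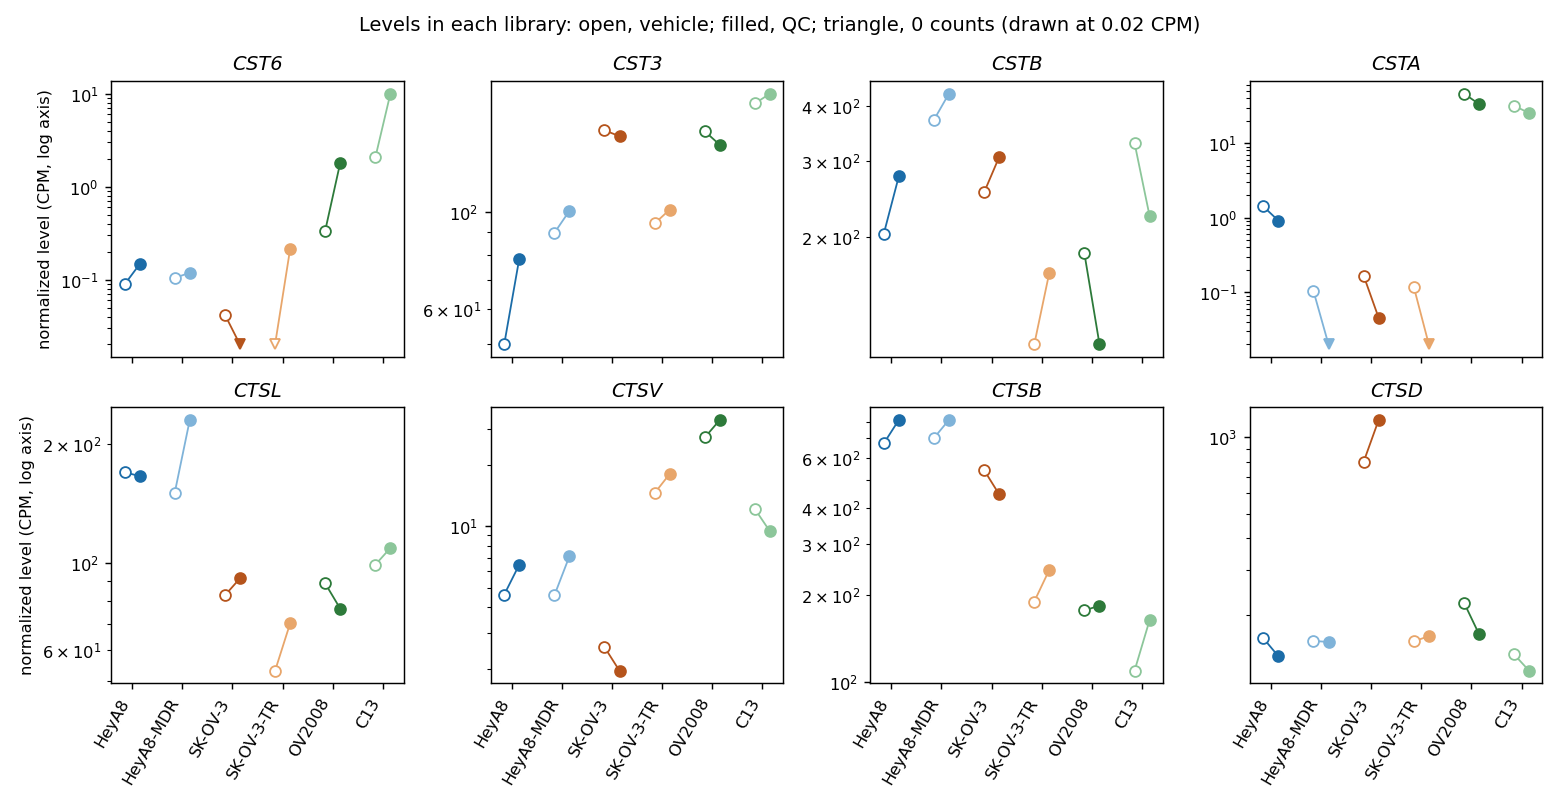
Normalized levels (CPM, log axis) of the 8 members with more than 2 counts in some library, with 1 panel per gene and 1 column per cell line; open symbols are vehicle, filled symbols QC, and triangles mark libraries with 0 counts. CST6 and CSTA were highest in OV2008 and C13, and CTSD was highest in SK-OV-3, where it was at 800 CPM with vehicle.

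CST6 (ENSG00000175315.3, chr11:66012008-66013505, GRCh38.p14) was the member with the largest QC difference, and nearly all of its counts came from OV2008 and C13. In OV2008 it had 6 counts with vehicle and 41 with QC (0.336 and 1.81 CPM), a 5.38-fold difference whose exact 95% binomial interval ran from 2.27 to 15.5. With both counts halved, to allow for fragments counted on both mates, this interval was 1.56 to 27.6. In C13 it had 62 and 266 counts (2.06 and 10.02 CPM), a 4.86-fold difference. The vehicle and QC counts were 2 and 4 in HeyA8, 2 and 2 in HeyA8-MDR, 1 and 0 in SK-OV-3, and 0 and 4 in SK-OV-3-TR. These 4 lines were at or near the floor of 3 counts and gave no usable direction. In these bulk libraries, more cells that express a gene and more of its RNA per cell cannot be told apart.

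**Figure D2:**
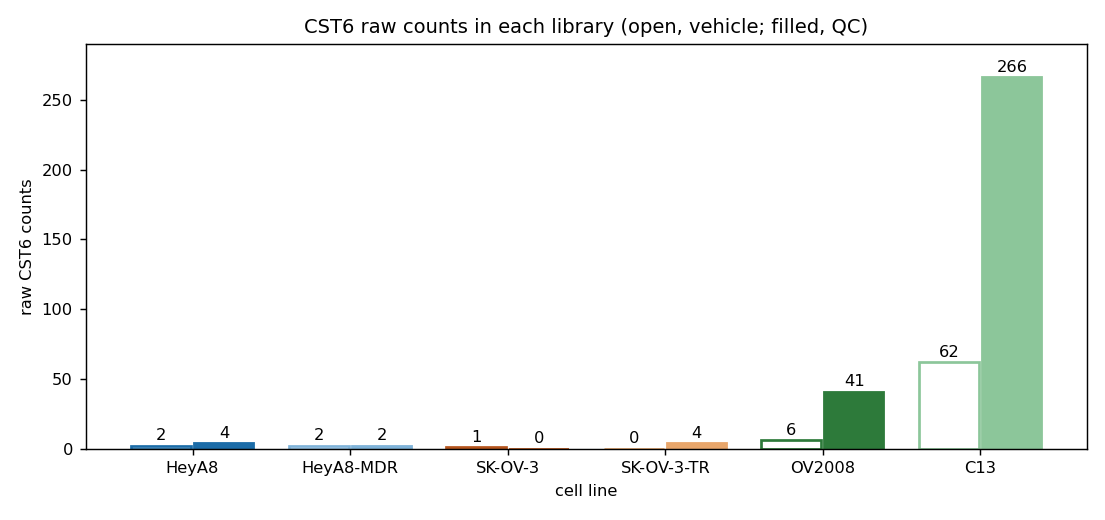
Raw CST6 counts (vertical axis, from 0) in each of the 6 lines (horizontal axis), open bars for vehicle and filled bars for QC, 1 library per bar. The counts of OV2008 and C13 were higher with QC (6 and 41, 62 and 266), and the other 8 libraries held 4 counts or fewer.

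In the fit over all 6 lines the log2 fold change of CST6 with QC was 1.93 (standard error 0.565, adjusted p = 0.176, edgeR's quasi-likelihood test). The unadjusted p was under 0.05. It was 2.18 (standard error 0.807, adjusted p = 0.816) in resistant lines and 1.53 (standard error 0.920, adjusted p = 0.778) in sensitive lines by the same edgeR test, with an unadjusted p under 0.05 in resistant lines and above it in sensitive lines. The difference between the groups was 0.65 (standard error 1.26, adjusted p = 0.9998, edgeR), so a larger response in resistant lines was not shown. With usable counts in OV2008 and C13 alone, the group values mainly compare 1 pair of libraries with 1 other pair. Leaving out 1 line moved the effect in sensitive lines to between 0.058 (without OV2008) and 1.89 (without HeyA8), and the difference to between 0.29 (without HeyA8) and 2.13 (without OV2008). With no filter on low counts the fit over all 6 lines gave 1.93 with an adjusted p of 0.0153 in edgeR's quasi-likelihood test, the single adjusted call for a member under the settings tried. That setting called 791 of 39590 genes after adjustment, compared with 0 in the main fit, so the call is not particular to CST6. The fitted effect rested on C13 and OV2008, partners of 1 isogenic family. Without OV2008 it was 1.75, and without C13 the gene did not reach the count needed for testing. Without HeyA8 it was 2.10. The unadjusted p was under 0.05 in both of these fits. CST6 also differed between the vehicle libraries of these partners, at 6 counts in OV2008 and 62 in C13, 6.14-fold higher in C13 (interval 2.67 to 17.4, or 1.92 to 31.4 on halved counts).

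Over the 12 libraries the genes most like CST6 in log2 CPM were SIRPB2 (Pearson r = 0.962), IL36RN (r = 0.953) and ANKUB1 (r = 0.951). As for CST6, their counts came mainly from OV2008 and C13. SIRPB2 had 12 and 54 counts in OV2008 and 71 and 277 in C13, vehicle first. IL36RN, an antagonist of the interleukin-36 receptor, had 14 and 144 counts in OV2008 and 86 and 248 in C13. ANKUB1 had 2 and 51 counts in OV2008 and 23 and 148 in C13. These correlations describe 12 libraries that share lines and 8 libraries near 0.

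CSTA (stefin A, ENSG00000121552.4, chr3:122325248-122341969), a cytosolic inhibitor typical of squamous epithelium, was lower with QC in the 2 lines where it was well counted. Vehicle and QC levels were 46.2 and 33.5 CPM in OV2008 and 31.7 and 25.3 CPM in C13, 0.724-fold and 0.798-fold. In HeyA8 it had 32 and 25 counts, a 0.644-fold ratio with an interval of 0.366 to 1.12, which includes no difference. The other 3 lines had 4 counts or fewer in each library, and their intervals (up to 6.07 in HeyA8-MDR, 2.74 in SK-OV-3 and 2.72 in SK-OV-3-TR) include no difference. The point values lay below 1 in all 6 lines, but only OV2008 and C13 had counts that could give a direction. Of all 18720 genes tested, 4.6% were lower with QC in all 6 lines, and 8.73% went 1 way, up or down, in all 6. Given the low counts, nothing is read from this share. When levels were scaled to the ribosomal protein gene RPLP0 in place of TMM, CSTA was lower in HeyA8, HeyA8-MDR, SK-OV-3 and SK-OV-3-TR but at log2 ratios of 0.0085 in OV2008 and 0.16 in C13, because RPLP0 itself differed with QC by -0.47 and -0.48 there on the log2 scale (-0.29 to 0.11 in the other lines). In the fit over all lines the log2 fold change was -0.60 (standard error 0.268, adjusted p = 0.318, edgeR's quasi-likelihood test). Its unadjusted p was under 0.05, but not in the fits without HeyA8 (-0.57), without SK-OV-3 (-0.55), without OV2008 (-0.71) or without C13 (-0.78). The levels of CSTA with vehicle in the other families were 1.42 CPM in HeyA8, 0.104 in HeyA8-MDR, 0.167 in SK-OV-3 and 0.118 in SK-OV-3-TR. HeyA8 and HeyA8-MDR had 32 and 2 vehicle counts, a ratio of 0.0733 (interval 0.00851 to 0.287).

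CSTB (stefin B, ENSG00000160213.8, chr21:43773950-43776308), the other intracellular stefin, split by family rather than by resistance. With QC it was higher in HeyA8 (203.6 to 276 CPM, 1.36-fold), HeyA8-MDR (372 to 428 CPM, 1.15-fold), SK-OV-3 (253 to 306 CPM, 1.21-fold) and SK-OV-3-TR (113 to 166 CPM, 1.46-fold). It was lower in OV2008 (184 to 114 CPM, 0.620-fold) and C13 (329 to 224 CPM, 0.680-fold). Both partners of each family moved the same way. After scaling to RPLP0 the directions were the same, but the falls in OV2008 and C13 were smaller. Their log2 ratios were then -0.217 and -0.0776, compared with -0.69 and -0.557 under TMM. In the other lines the scaled log2 ratios were 0.0868 to 0.559. The fitted effect over all lines was near 0 (log2 fold change 0.04, standard error 0.172, adjusted p = 0.942, edgeR's quasi-likelihood test). Without HeyA8 the fitted value was -0.05. HeyA8 with QC was nearer to the 372 CPM of HeyA8-MDR vehicle, the direction in which that library stood apart. The family split was not tested.

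CST3 (cystatin C, ENSG00000101439.9, chr20:23626706-23637955), the most widely expressed secreted cystatin, changed little in 5 lines. Its QC to vehicle ratios were 1.12 in HeyA8-MDR, 0.969 in SK-OV-3, 1.08 in SK-OV-3-TR, 0.931 in OV2008 and 1.05 in C13, at levels of 89.7 to 187 CPM, and the ratio was above 1 in all 6 lines after scaling to RPLP0. In HeyA8 it was at 49.8 CPM with vehicle and 78.2 with QC (1.57-fold), beside 89.7 CPM in HeyA8-MDR vehicle, the direction in which the HeyA8 QC library stood apart. The fitted log2 fold change over all lines was 0.14 (standard error 0.121, adjusted p = 0.618, edgeR's quasi-likelihood test) and 0.04 without HeyA8. The part that the HeyA8 QC library plays in these values was not tested beyond leaving it out.

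CTSL (cathepsin L, ENSG00000135047.15, chr9:87726119-87731469) is a lysosomal cysteine protease and one of the targets of CST6. In resistant lines the levels with vehicle and QC were 150.6 and 230.5 CPM in HeyA8-MDR (1.53-fold), 53.1 and 70.1 CPM in SK-OV-3-TR (1.32-fold), and 98.8 and 109 CPM in C13 (1.10-fold). In sensitive lines they were 169.6 and 166 CPM in HeyA8 (0.979-fold), 82.6 and 91.2 CPM in SK-OV-3 (1.10-fold), and 88.6 and 76.4 CPM in OV2008 (0.863-fold). The ratio was above 1 in all 3 resistant lines and in 1 of 3 sensitive lines, and the ranges of the groups overlapped between SK-OV-3 and C13. After scaling to RPLP0 the ratio was above 1 in all 6 lines.

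The fitted log2 fold change of CTSL was 0.38 in resistant lines (standard error 0.174, adjusted p = 0.818, edgeR's quasi-likelihood test). It was -0.03 in sensitive lines (standard error 0.174, adjusted p = 0.985, edgeR) and -0.04 without HeyA8. Over all lines it was 0.18 (standard error 0.126, adjusted p = 0.530, edgeR), and 0.22 without HeyA8. The difference of 0.42 between the groups (standard error 0.246) had an adjusted p of 0.9998 in edgeR's test and did not pass before adjustment either. The unadjusted p was under 0.05 in resistant lines, and above it without HeyA8-MDR (log2 fold change 0.25) or without SK-OV-3-TR (0.39). The genes most like CTSL over the 12 libraries were RPL15 (Pearson r = 0.954), REXO2 and PEX19 (r = 0.953 each). Reads of CTSL pseudogenes were few: CTSLP1 had at most 27 counts and CTSLP8 at most 24, compared with at least 1322 for CTSL, although reads shared with a copy may have been left uncounted.

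CTSB (cathepsin B, ENSG00000164733.21, chr8:11842524-11868087), the member protease with the highest median level in CPM, was also higher with QC in the 3 resistant lines. Levels were 701 and 810 CPM in HeyA8-MDR (1.16-fold), 189.9 and 245 CPM in SK-OV-3-TR (1.29-fold), and 109.3 and 164 CPM in C13 (1.497-fold). In sensitive lines they were 671 and 809.7 CPM in HeyA8 (1.21-fold), 543 and 447 CPM in SK-OV-3 (0.824-fold), and 177 and 184 CPM in OV2008 (1.04-fold). HeyA8 lay within the range of the resistant lines, and after scaling to RPLP0 the ratio was above 1 in all 6 lines. The fitted log2 fold change was 0.20 over all lines (standard error 0.128, adjusted p = 0.478, edgeR's quasi-likelihood test) and 0.19 without HeyA8. It was 0.39 in resistant lines (standard error 0.184, adjusted p = 0.818) and 0.02 in sensitive lines (standard error 0.184, adjusted p = 0.992), with a difference of 0.37 (standard error 0.260, adjusted p = 0.9998) in edgeR's quasi-likelihood test. For CTSB in resistant lines the unadjusted p was above 0.05 in edgeR and under it in DESeq2 (adjusted p = 0.769, log2 fold change 0.40).

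CTSV (cathepsin V, ENSG00000136943.11, chr9:97029677-97039643), a close paralog of CTSL, had no common direction. It was higher with QC in HeyA8 (4.61 to 6.47 CPM), HeyA8-MDR (4.57 to 7.11), SK-OV-3-TR (14.5 to 18.0) and OV2008 (27.2 to 33.2), and lower in SK-OV-3 (2.55 to 1.95, from 61 and 43 counts) and C13 (12.1 to 9.42). Ratios were 1.40, 1.56, 1.24 and 1.22 in the first 4 and 0.765 and 0.777 in the last 2. C13 lay above 1 after scaling to RPLP0. The log2 fold change over all lines was 0.17 (standard error 0.181, adjusted p = 0.691, edgeR's quasi-likelihood test) and 0.11 without HeyA8.

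CTSD (cathepsin D, ENSG00000117984.14, chr11:1752755-1763927), the aspartic protease, was lower with QC in HeyA8 (161 to 137 CPM), OV2008 (223 to 168), C13 (139 to 120.1) and, at 0.990-fold, in HeyA8-MDR (157.5 to 156). In SK-OV-3 it was higher, from 800 to 1170 CPM (1.46-fold), and in SK-OV-3-TR it was at 157 and 164 CPM. When scaled to RPLP0, the ratios of OV2008 and C13 were above 1 and that of SK-OV-3-TR just below 1. The log2 fold change over all lines was -0.04 (standard error 0.134, adjusted p = 0.908, edgeR's quasi-likelihood test) and -0.0048 without HeyA8. Genes overlapping CTSD, such as PRADX on the opposite strand (23 to 280 counts), were small beside its 2634 to 25767 counts, and without a stated strand setting reads of such pairs cannot be told apart.

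**Figure D3:**
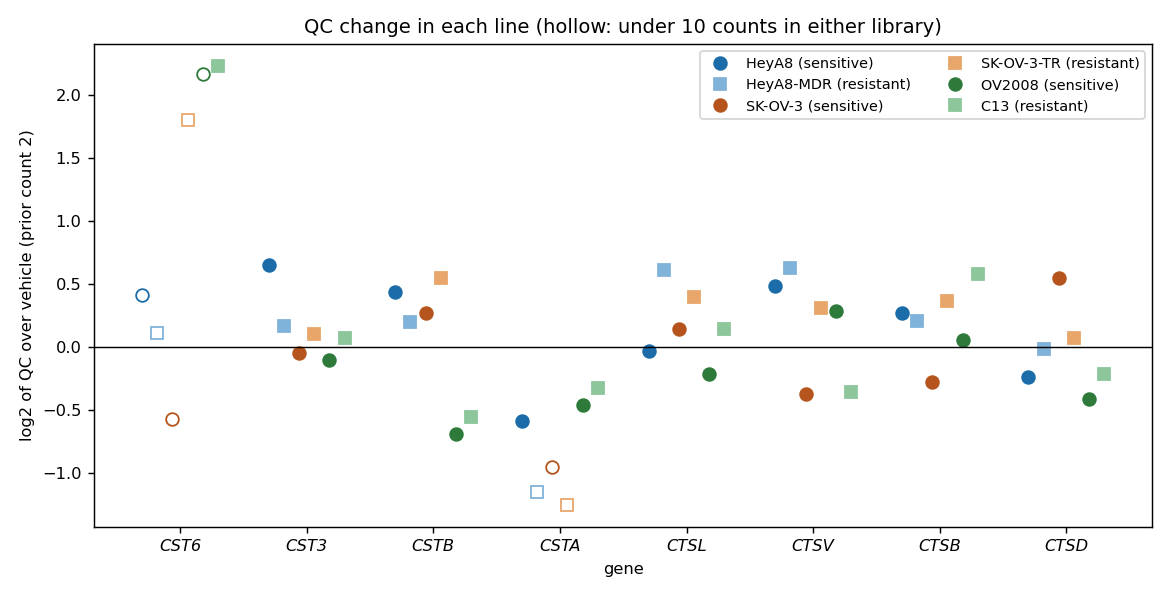
Log2 ratio of QC over vehicle (vertical axis) for the 8 members (horizontal axis) in each line, circles for sensitive and squares for resistant lines, 1 pair of libraries per point; hollow points have under 10 counts in either library. CSTA lay below 0 in OV2008, C13 and HeyA8, with hollow points in the other 3 lines, CSTB was above 0 in 4 lines and below in OV2008 and C13, and CTSL and CTSB were above 0 in each resistant line.

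Over all 6 lines, 2 of 8 members tested had an unadjusted p under 0.05, CST6 upwards and CSTA downwards, compared with 15.2% of the 18720 genes tested. In resistant lines 2 of 8 did, CST6 and CTSL, both upwards, compared with 6.03% of all genes (3.43% upwards). The CST6 call there rested mainly on the C13 pair, as HeyA8-MDR and SK-OV-3-TR were near the floor. In sensitive lines there were 0 of 8 (background 6.59%) and for the difference between the groups 0 of 8 (background 1.16%). The members' median log2 fold change was 0.15 in resistant lines and 0.01 in sensitive lines, compared with -0.01 and 0.02 over all genes tested. After adjustment over all genes edgeR's quasi-likelihood test called 0 members and 0 genes (0%) in each of these comparisons. At an unadjusted p under 0.05 DESeq2 gave 3 of 8 members in resistant lines (CST6, CTSL and CTSB), compared with 1093 of 18720 genes. Over all lines it gave 1 of 8 (CST6), compared with 2901 of 18720 genes. In sensitive lines and for the difference it gave 0 members, compared with 1156 and 167 genes. DESeq2 after adjustment called 31 genes in sensitive lines, 0 in resistant lines, 518 over all lines and 1 for the difference, with no member among them, and gave CST6 no adjusted p over all lines. CST1 and CST4 did not pass the filter on low counts.

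**Figure D4:**
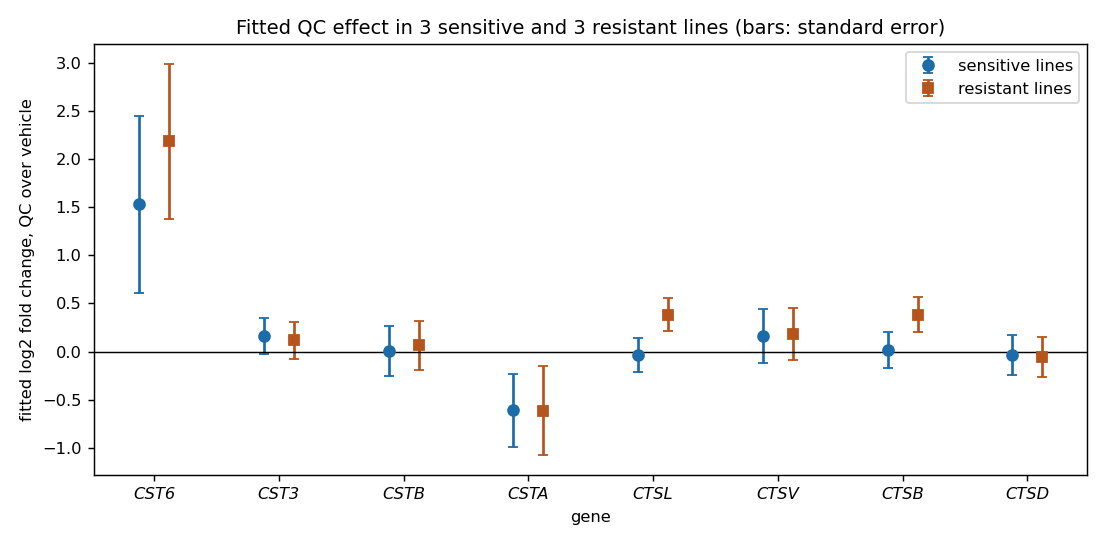
Fitted log2 fold change of QC over vehicle (vertical axis) for the 8 members tested (horizontal axis), circles for the 3 sensitive lines and squares for the 3 resistant lines; bars are standard errors from edgeR's fit. CTSL and CTSB were at 0.38 and 0.39 in resistant lines and at -0.03 and 0.02 in sensitive lines, and the bars of CST6 overlapped between the groups.

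Between untreated partners, the largest differences of members with at least 50 counts in both libraries were in the SK-OV-3 family. The low-count differences of CSTA in the HeyA8 family and of CST6 between OV2008 and C13, given above, were larger. CST3 differed more in the HeyA8 family (1.80-fold higher in HeyA8-MDR) than in the SK-OV-3 family (1.63-fold lower in SK-OV-3-TR). CTSD was at 800 CPM in SK-OV-3 and 157 CPM in SK-OV-3-TR, 5.10-fold lower in the resistant line, while HeyA8 and HeyA8-MDR were at 161 and 157.5 CPM and OV2008 and C13 at 223 and 139 CPM. CTSB was 2.86-fold lower in SK-OV-3-TR (543 and 189.9 CPM) and 1.62-fold lower in C13 (177 and 109.3 CPM), and HeyA8 and HeyA8-MDR were at 671 and 701 CPM. CTSV went the other way, 5.70-fold higher in SK-OV-3-TR (2.55 and 14.5 CPM), but 2.25-fold lower in C13 (27.2 and 12.1 CPM). CSTB was 1.83-fold higher in HeyA8-MDR and 1.79-fold higher in C13 than in the sensitive partner, and 2.24-fold lower in SK-OV-3-TR.

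Across the 3 families none of these differences passed. The log2 fold change, resistant over sensitive, was -0.997 for CTSD (standard error 0.495, adjusted p = 0.975), -0.71 for CTSB (standard error 0.371, adjusted p = 0.975) and -1.39 for CSTA (standard error 0.749, adjusted p = 0.975) in edgeR's quasi-likelihood test on the 6 vehicle libraries. At an unadjusted p under 0.05 there were 0 of 7 members tested, compared with 3.77% of 16091 genes, and after adjustment 0 members and 0 genes, while DESeq2 gave 0 members and 41 genes after adjustment. Without the HeyA8 family CTSD (-1.51) and CTSB (-1.10) passed before adjustment, and without the SK-OV-3 family CSTB did (0.87), by edgeR. Before adjustment these 2 fits called 605 of 17437 and 572 of 16335 genes, and each had 1 residual degree of freedom.

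A wider list of 33 genes of the same pathway held 11 other cathepsins, 11 other cystatins and fetuins, 3 serpins that inhibit cysteine cathepsins together with legumain, and 7 genes of lysosomal enzyme sorting. Of the 33, 21 passed the filter on low counts. Before adjustment 4 of the 21 passed at 0.05 over all 6 lines, compared with 15.2% of all genes tested: CTSW upwards and CTSC, SERPINB13 and CTSH downwards. After adjustment edgeR's quasi-likelihood test called 0 of them. With no filter on low counts CTSC (adjusted p = 0.0059) and SERPINB13 (adjusted p = 0.00513) passed over all lines in edgeR, together with 791 of 39590 genes in all. DESeq2 gave CTSC an adjusted p of 0.0526 and SERPINB13 none. The median log2 fold change of the 10 other cathepsins tested was -0.12, compared with 0.00 over all genes, and that of the 7 sorting genes was 0.11, with none past the test. In sensitive lines 2 of the 21 passed before adjustment (6.59% of all genes), CTSC and SERPINB13, both downwards. In resistant lines there were 0 (edgeR, also 0 after adjustment), and for the difference 1 (1.16% of all genes), SERPINB13. As SERPINB13 was counted in OV2008 and C13 alone, its call compares 1 pair of libraries with 1 other pair, and DESeq2 gave it an adjusted p of 0.9999 for the difference and 0.990 in sensitive lines, neither past the threshold before adjustment.

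CTSC (cathepsin C, the dipeptidyl peptidase that activates granule serine proteases) had vehicle and QC levels of 40.9 and 15.9 CPM in OV2008, 39.5 and 17.9 CPM in C13, 104 and 66.8 CPM in HeyA8, and 67.8 and 50.2 CPM in SK-OV-3. It differed little in HeyA8-MDR (78.1 and 75.7 CPM) and SK-OV-3-TR (105 and 101 CPM). Its log2 fold change over all lines was -0.60 (standard error 0.178, adjusted p = 0.176, edgeR's quasi-likelihood test) and -0.60 without HeyA8. CTSH (an aminopeptidase cathepsin) was most abundant in OV2008 and C13, at 396 and 245 CPM and at 252 and 168 CPM, with a log2 fold change of -0.40 over all lines (standard error 0.155, adjusted p = 0.254, edgeR). It no longer passed before adjustment without OV2008 (-0.32) or without C13 (-0.37), and was -0.36 without HeyA8.

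SERPINB13 (headpin, a serpin of squamous epithelium that inhibits cathepsins L and K) was counted in OV2008 and C13 alone, with 0 counts in the other 8 libraries. It had 182 counts with vehicle and 20 with QC in OV2008 (0.0865-fold), and 409 and 181 in C13 (0.501-fold). In both lines CST6, which inhibits the same protease, was higher with QC while SERPINB13 was lower. The log2 fold change of SERPINB13 over all lines was -2.09 (standard error 0.654, adjusted p = 0.208, edgeR's quasi-likelihood test) and -2.10 without HeyA8. It was -0.95 without OV2008 and -0.56 in DESeq2, neither of which passed before adjustment. CTSW, a cathepsin known from lymphocytes, had 51 and 175 counts in HeyA8 and 150 and 167 in HeyA8-MDR, and at most 11 counts elsewhere. Its log2 fold change was 0.85 (standard error 0.322, adjusted p = 0.243, edgeR). Without HeyA8, the line whose QC library lay towards HeyA8-MDR, it was 0.61 and no longer passed before adjustment. The last of the 6 pathway genes with the smallest p were NAGPA (log2 fold change -0.29), which uncovers the mannose 6-phosphate tag of lysosomal enzymes, and CTSO (-0.62). Neither passed before adjustment.

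**Figure D5:**
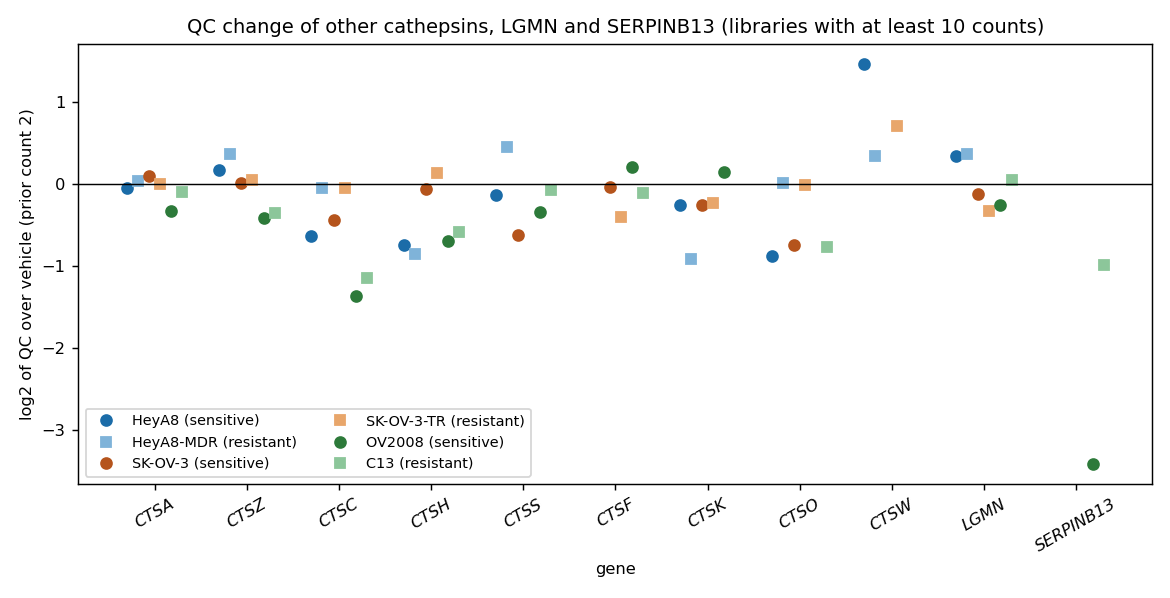
Log2 ratio of QC over vehicle (vertical axis) for 9 other cathepsins, legumain (LGMN) and SERPINB13 (horizontal axis), circles for sensitive and squares for resistant lines, showing pairs with at least 10 counts in both libraries. CTSC and SERPINB13 were lowest in OV2008, and the HeyA8 point of CTSW lay at 1.47.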

How the data were processed

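RNA-seq libraries were prepared by the authors with the TruSeq RNA kit from 12 cultures (6 lines, vehicle or 8 µM QC, 6 h). The deposited values are raw counts per gene from HTSeq, without normalization. The submitters' processing notes name STAR 2.7.3a, HTSeq 0.6.1p1 and GRCh38.p13, whereas the study's methods name TopHat and hg19, and the strand setting is not given in the sources used here. Symbols were matched by Ensembl ID for 58620 IDs, and the 2049 unmatched IDs, with 0.132% of the counts, stayed in the tests. Coordinates and promoters are from RefSeq GRCh38.p14, and lengths are those of the MANE transcript.

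Counts were tested with edgeR 4.0.16 (R 4.3.3, limma 3.58.1), by the quasi-likelihood test with TMM and filterByExpr (minimum count 10), two-sided, with Benjamini-Hochberg adjustment over all genes tested. The fit over the 12 libraries had 1 term per line and a QC effect for all lines, or 1 for each group. The vehicle fit had 1 term per family and a resistance effect. Standard errors were taken from the log2 fold change and its F value. The libraries of a line are paired by the labels, and their deviations correlated at 0.893 to 0.929. Log2 ratios within a line used a prior count of 2. Intervals are exact conditional binomial 95% intervals for genes under 50 counts and cover counting error only. DESeq2 1.42.0, other scalings, filters and prior counts, the fit without a line term and leaving out each line were tried. The edgeR steps were tested on simulated data. P-values for QC measure the spread of the QC difference between lines, with the noise of single libraries. The lines form isogenic pairs, and the fit over all lines counts the partners of a pair as separate replicates. Partners that respond alike are not independent, and these p-values do not allow for that. Those for the vehicle libraries measure the spread of the partner difference between families. Nothing in the labels describes repeat cultures of a line.

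The members and gene lists were chosen with earlier results of these data known. The text names all 10 members, the 6 wider pathway genes with the smallest p over all lines, and the 3 genes most like CST6 and CTSL.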

Additional observations from a re-analysis of the deposited data

How the results depend on the processing

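Each group held 3 lines with 1 library per treatment, so a result rests on few lines, and CST6 and CSTA had usable counts in OV2008 and C13 and few elsewhere.

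The count of members with an unadjusted p under 0.05 in resistant lines (2 of 8) was 0 with no replicate block and with the 6 resistant libraries alone, and 1 with no expression filter, with at least 10 counts in every library and with a log2 fold change of at least 1 added. Leaving out 1 line gave 1 to 2. Over all 6 lines (2 of 8) it was 0 with no replicate block and under the minimum of 10 counts everywhere, 1 with DESeq2, with library size only and with the fold threshold, and 0 to 2 on leaving out 1 line. For the difference between groups it was 0 to 1 (CSTA without C13), and for sensitive lines 0 throughout. Between vehicle libraries it was 3 of 8 with no expression filter (CTSD, CSTA and CTSB), compared with 1583 of 36276 genes, and 0 to 2 on leaving out 1 family.

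The following log2 effects changed sign, and the cause was not tested. CSTB over all lines ran from -0.0671 to 0.185 on leaving out 1 line: -0.05 without HeyA8, -0.01 without HeyA8-MDR, -0.02 without SK-OV-3 and -0.0671 without SK-OV-3-TR. CTSD over all lines was 0.14 with no replicate block and -0.168 to 0.0337 on leaving out 1 line, with 0.0337 without OV2008. In resistant lines CSTB ran from -0.16 to 0.36 (-0.02 without HeyA8-MDR, -0.16 without SK-OV-3-TR), CTSV from -0.0410 to 0.449 (-0.0410 without HeyA8-MDR) and CTSD from -0.0973 to 0.0143 (0.0143 without C13). In sensitive lines CTSL ran from -0.135 to 0.0590 (0.0590 without OV2008) and CTSB from -0.11 to 0.15 (-0.11 without HeyA8, -0.0011 without OV2008). Between vehicle libraries CST3 ran from -0.24 to 0.55, CSTB from -0.16 to 0.87 (-0.11 without the OV2008 family), CTSL from -0.367 to 0.0104 and CTSV from -0.58 to 1.29, and CTSV was -0.12 with no replicate block.

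Over all genes, unadjusted calls were 1234 in sensitive lines, 1128 in resistant lines, 2840 over all lines, 217 for the difference and 606 between vehicle libraries, and with no replicate block 30, 23, 117, 6 and 104. With no expression filter they were 1918 in sensitive lines, 1637 in resistant lines, 3638 over all lines, 501 for the difference and 1583 between vehicle libraries. Adjusted calls were then 195, 35, 791, 5 and 146, compared with 0. DESeq2 gave 1058 unadjusted and 41 adjusted calls between vehicle libraries, and 518 adjusted calls over all lines compared with 0. For the difference, calls were 120 with at least 10 counts in every library, 438 with the isogenic family as block, and 419, 466 and 540 without SK-OV-3, OV2008 and C13. In sensitive lines they were 808, 2012 and 813 without HeyA8, SK-OV-3 and OV2008, and in resistant lines 416 without HeyA8-MDR.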
